A study of Mus musculus with 6 samples.

Results

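Gamma-secretase and the proteases that cut Notch were followed through 7 genes: Ncstn, Psen2, Psenen, Aph1a, Aph1b, Adam10 and Adam17. They were 7 of the 21853 protein-coding genes with annotated transcription start sites (TSSs). The genes were taken as a named set, and their peaks were those that overlapped 1000 bp either side of any protein-coding TSS of the gene in the mouse build mm10. Chromatin accessibility had been profiled by ATAC-seq, in which a transposase cuts open DNA and reads pile up into peaks. Plastic-adherent marrow cells from tibia and femur of C57BL/6 mice, taken at first passage, served as skeletal stem and progenitor cells (SSPCs). There were 3 young and 3 middle-aged libraries, with no treatment or genetic change in either group. The labels gave no age in months and did not say whether each library came from 1 mouse, so p-values measure the spread between these libraries, which may be technical.

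Notch receptors are activated by successive cuts. After a ligand on a neighboring cell binds, a metalloprotease of the ADAM family sheds the outer part of the receptor, and gamma-secretase then cuts inside the membrane and releases the intracellular domain, which enters the nucleus and works with the DNA-binding factor RBPJ. Gamma-secretase is a complex of a catalytic presenilin, nicastrin, which takes part in substrate recognition, an APH1 scaffold, and the presenilin enhancer encoded by Psenen. Notch signaling has been reported to hold skeletal progenitors back from forming bone, and its roles depend on context.

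DNA near the peak summits is shown first because the accessibility values refer to these peaks. For each gene, 200 bases centred on the median summit over the 6 libraries were searched on both strands for short core motifs. The lines give the part of each window that held at most 30 bases of annotated untranslated exon, 5′ to 3′ in the direction of transcription, from the reference GRCm38.p6 (mm10). The stretches printed for Ncstn and Aph1b held no summit of any library, and that for Adam17 left out the summit of middle-aged replicate 1. Capitals mark whole matches to the core motifs named in the text that follows, or to their reverse complements.
Ncstn, chr1:172082784-172082813, minus strand: cCCGGAAGctcctcggacaaggaCTTCCGG
Psen2, chr1:180256271-180256434, minus strand: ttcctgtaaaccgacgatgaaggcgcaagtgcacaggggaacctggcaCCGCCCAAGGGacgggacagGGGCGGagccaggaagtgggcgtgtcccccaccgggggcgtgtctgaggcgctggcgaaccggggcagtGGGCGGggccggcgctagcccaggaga
Psenen, chr7:30563242-30563330, minus strand: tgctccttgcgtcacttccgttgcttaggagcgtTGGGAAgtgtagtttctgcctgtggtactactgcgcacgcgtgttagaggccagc
Aph1a, chr3:95893762-95893961, plus strand: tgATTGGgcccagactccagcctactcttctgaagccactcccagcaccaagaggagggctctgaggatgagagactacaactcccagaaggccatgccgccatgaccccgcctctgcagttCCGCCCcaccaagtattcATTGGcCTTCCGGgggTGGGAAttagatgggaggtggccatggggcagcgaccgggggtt
Aph1b, chr9:66795600-66795799, minus strand: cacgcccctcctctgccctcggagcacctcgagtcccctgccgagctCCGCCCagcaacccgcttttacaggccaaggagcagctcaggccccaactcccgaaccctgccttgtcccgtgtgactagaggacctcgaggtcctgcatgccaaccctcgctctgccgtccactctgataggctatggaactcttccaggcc
Adam10, chr9:70678792-70678991, plus strand: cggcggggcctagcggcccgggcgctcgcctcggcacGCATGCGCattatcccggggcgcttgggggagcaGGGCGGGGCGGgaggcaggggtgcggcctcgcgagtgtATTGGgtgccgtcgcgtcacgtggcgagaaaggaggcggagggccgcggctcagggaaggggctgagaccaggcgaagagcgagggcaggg
Adam17, chr12:21373603-21373749, minus strand: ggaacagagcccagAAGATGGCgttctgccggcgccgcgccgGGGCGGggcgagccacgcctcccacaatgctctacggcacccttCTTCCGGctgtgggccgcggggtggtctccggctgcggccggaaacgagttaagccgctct

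The windows were GC-rich, as those of most genes with a promoter peak. The median GC content was 65.5% in the 7 genes and 66% in the 10569 genes that had a TSS peak in all 6 libraries. Adam10 had the most GC-rich window (75%), and Psenen the least (60.5%). CpG dinucleotides ranged from 6 in Aph1a to 26 in Adam10.

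The core GGGCGG, bound by Sp and Klf factors, matched in 6 of the 7 windows, all but that of Psenen, against 67.5% of the 10569 genes. The ETS core CCGGAAG matched in Ncstn, Aph1a and Adam17, against 18.1% of genes. In Ncstn it matched at 2 places, both within the stretch printed above. The YY1 core AAGATGGC matched in Ncstn and Adam17 (3.91% of genes), and the NRF1 core GCATGCGC in Psenen and Adam10 (5.33%). CCAAT, the NF-Y core, matched in Aph1a and Adam10 (35.7%). TGGGAA, the core read by RBPJ, matched in Psenen and Aph1a (13.7%), and CCCNNGGG, the core of Ebf factors, in Psen2 (13.6%), where it overlapped a GGGCGG match. There were 0 matches in the 7 windows to the housekeeping-promoter element TCTCGCGA (2.44% of genes), the CREB site TGACGTCA (3.39%), the AP-1 site TGANTCA (2.94%) and the TATA box TATAAA (2.08%). These matches describe letters in a window and do not show binding.

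All 7 genes had a called TSS peak in all 6 libraries. Between 49.5% and 58.0% of protein-coding genes had one in each library. The lists held 35953, 43941 and 27628 peaks in young replicates 1, 2 and 3. They held 46364, 46745 and 48344 in middle-aged replicates 1, 2 and 3, so list length had no overlap between the ages. Young replicate 3 had the shortest list and the lowest genome-wide background, 1.65 extended reads per base against 2.40 to 3.75. Read totals were not given in the files. Peaks at the TSSs of SSPC marker genes were incomplete: 3 of 8 had one in every library (Kitl, Runx2 and Ebf3), and Lepr and Prrx1 had none in any. Of 8 hematopoietic markers, 7 had a TSS peak in every library, and of 6 endothelial markers 1 did (Cdh5). The number of hematopoietic markers with a peak was 7 to 8 in the young libraries and 7 in each middle-aged library, and that of SSPC markers was 3 to 6 and 5 to 6. Strength is not seen in such counts. By percentile rank within a list, explained below, markers with a peak in every library also differed between the ages. The median difference, middle-aged minus young, was 9.76 points over the 7 hematopoietic markers and 13.3 over the 3 SSPC markers. It was 0.034 at Cdh5 and 4.97 over all genes. The part of cell composition in the results below was not tested.

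**Figure D1:**
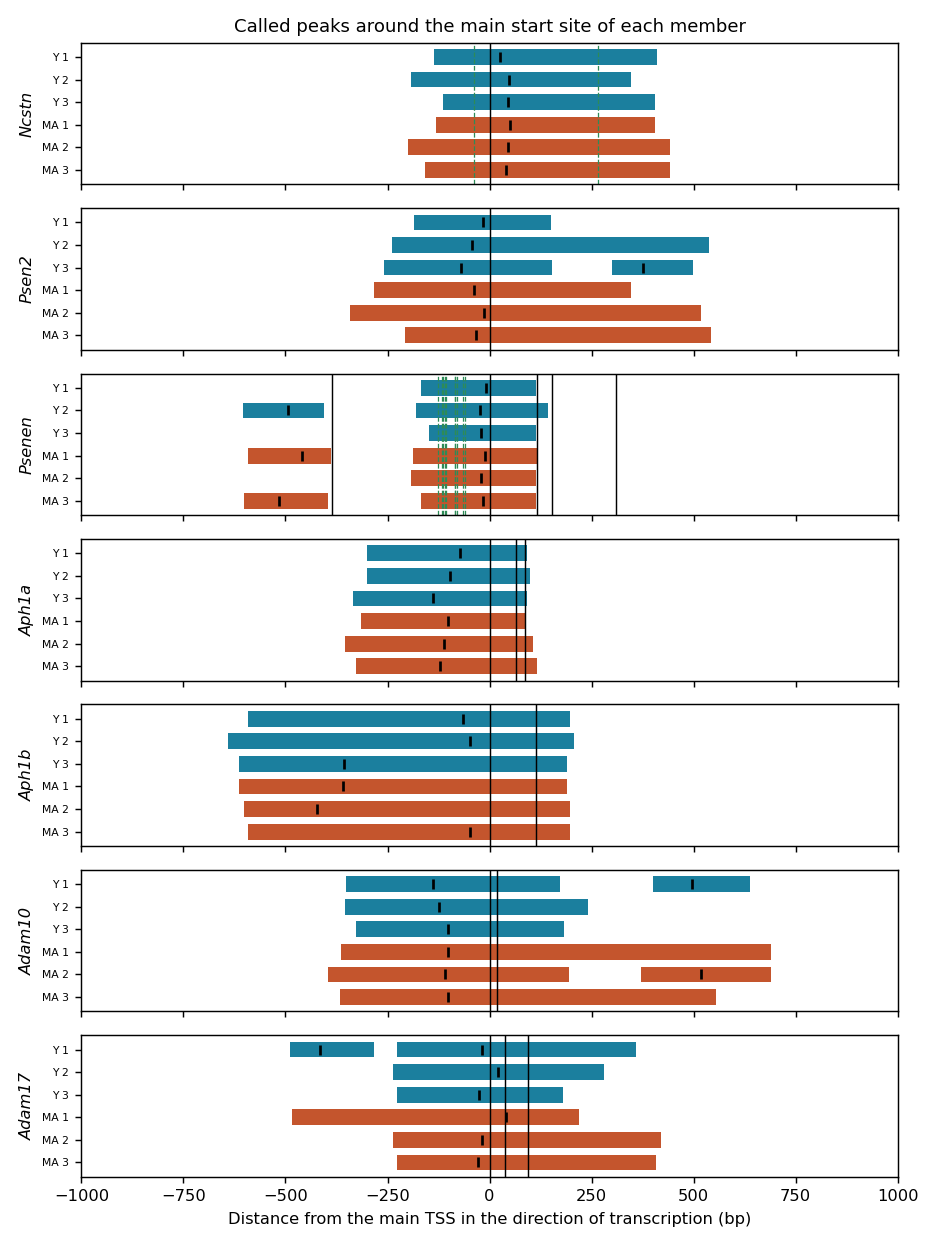
Called peaks within 1000 bp of the main TSS of each gene (x axis: distance in bp in the direction of transcription), with young libraries (Y) in blue and middle-aged libraries (MA) in orange. Black ticks are summits, black vertical lines are TSSs of the gene, and green dashed lines are TSSs of another protein-coding gene. Every library has a peak across the main TSS of each gene, and at Adam10 the peaks cover more bases after the TSS in each middle-aged library than in each young library.

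The position of a peak was stable in most of the genes. The 6 summits lay within 14 bp of each other in Psenen, 25 bp in Ncstn, 38 bp in Adam10, 55 bp in Psen2, 65 bp in Aph1a and 69 bp in Adam17. Aph1b was different, with a range of 375 bp, wider than or equal to that of 91.2% of genes. Relative to the TSS, its summits lay at −64, −49 and −357 bp in young replicates 1, 2 and 3 and at −360, −422 and −47 bp in middle-aged replicates 1, 2 and 3. Each age group thus had summits at both places inside 1 broad peak. The 200 bases printed for Aph1b lie between them.

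Nicastrin is encoded by Ncstn (chr1:172066013-172082795, minus strand). Its TSS peak covered chr1:172082352-172082994 over the 6 libraries and included the first exon. Each peak is placed below by its percentile rank within its own list, where the peak with the highest −log10 q has 100. The Ncstn peak ranked at 74.2, 83.7 and 72.2 in the young libraries and at 84.5, 83.9 and 90.9 in the middle-aged libraries. All 3 middle-aged ranks lay above all 3 young ranks, but those of young replicate 2 and middle-aged replicate 2 were almost equal. Ranks averaged 76.7 ± 6.12 (SD, n = 3) over young and 86.4 ± 3.90 over middle-aged libraries, a difference of 9.75 percentile points (two-sided exact permutation p = 0.1). With 3 libraries a group, 0.1 is the smallest p this test can give.

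Fold enrichment, the summit pileup over the local background with 1 added to each, was 8.46, 12.1 and 9.54 at Ncstn in young libraries. It was 12.2, 11.2 and 15.0 in middle-aged libraries. Here the groups overlapped, since young replicate 2 exceeded middle-aged replicate 2 (exact permutation p = 0.2). The peak was 547, 540 and 520 bp wide in the young libraries and 536, 643 and 602 bp wide in the middle-aged libraries, which also overlapped (exact permutation p = 0.3). The Ncstn TSS lies 37 bp from the TSS of Copa, a coat protein gene on the other strand, and both genes had the same best peak in 6 of 6 libraries. Accessibility at Ncstn and at Copa can therefore not be told apart. Of the 10569 genes, 22.5% had another protein-coding TSS within 1000 bp.

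The genes whose ranks were closest to those of Ncstn over the 6 libraries, apart from genes with the same peak, were Inafm1, Depdc5 and Nol11. Their root mean square differences from Ncstn were 1.13, 1.58 and 1.60 percentile points, the smallest among the 10567 genes compared.

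Psen2, a catalytic subunit (chr1:180227004-180263438, minus strand), has 6 annotated protein-coding TSSs. Peaks were found at 2 of them. The stronger peak covered chr1:180255758-180256641, at the TSS at 180256300, with ranks of 83.4, 79.4 and 71.9 in young and 84.5, 86.1 and 89.3 in middle-aged libraries. The middle-aged ranks were again all above the young ranks, with a difference of 8.39 percentile points (exact permutation p = 0.1). Its fold enrichment was 8.95, 9.15 and 8.10 in young and 10.2, 10.9 and 12.0 in middle-aged libraries, and did not overlap either (exact permutation p = 0.1). Widths ranged from 335 to 778 bp in young and from 629 to 860 bp in middle-aged libraries and overlapped. An antisense RNA gene, Gm31728, also starts within 1000 bp of this region.

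The first and most upstream Psen2 TSS, at 180263438, had a weaker peak in every library, at chr1:180263410-180263861. It reached across the TSS itself in 2 libraries. It ranked at 38.6, 38.5 and 15.9 in young libraries and at 39.4, 67.0 and 69.7 in middle-aged libraries. Thus middle-aged replicates 2 and 3 stood well above the rest, while middle-aged replicate 1 was close to young replicates 1 and 2. Intronic peaks were present in all 6 libraries at chr1:180250015-180250458 and chr1:180260954-180261324. The ranks of the first varied from 12.7 to 68.8 in young and from 32.0 to 66.9 in middle-aged libraries, and those of the other from 14.8 to 65.0 and from 52.8 to 65.3. Both overlapped between the groups.

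Psenen (chr7:30561863-30563627, minus strand) encodes the presenilin enhancer, which is needed for maturation of the complex. Its peak, at chr7:30563097-30563434, ranked at 74.5, 79.9 and 64.1 in young and at 82.5, 82.7 and 81.0 in middle-aged libraries. The middle-aged ranks lay close together and above every young rank, with a difference of 9.22 percentile points (exact permutation p = 0.1), which was 3.03 (p = 0.3) with equally long lists. Fold enrichment was 6.30, 7.31 and 6.39 in young and 7.60, 8.0 and 7.44 in middle-aged libraries, with no overlap (exact permutation p = 0.1). The peak was narrow in both groups, 263 to 325 bp in young and 281 to 307 bp in middle-aged libraries.

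The nearest TSS of U2af1l4, a splicing factor gene on the other strand, lies 60 bp from the main Psenen TSS, and the 2 genes had the same best peak in 6 of 6 libraries. Transcripts of a further gene on that strand, Gm49396, also start within 1000 bp of the region. As with Ncstn and Copa, the peak cannot be assigned to one of the genes. A second, weaker peak upstream, at chr7:30563629-30563846, was called in 1 young and 2 middle-aged libraries.

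The APH1 scaffold has members encoded by separate genes. The Aph1a peak (chr3:95893615-95894085; gene chr3:95893969-95898288, plus strand) ranked at 85.4, 92.1 and 80.7 in young and at 91.3, 89.0 and 90.1 in middle-aged libraries. Young replicate 2 had the highest rank of all 6, so the groups overlapped (difference 4.08, exact permutation p = 0.4). Its fold enrichment was 10.6, 14.5 and 9.95 in young and 15.6, 13.9 and 13.4 in middle-aged libraries. The peak was 393 to 426 bp wide in young and 404 to 461 bp in middle-aged libraries.

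The Aph1b peak (chr9:66795283-66796132; gene chr9:66775202-66795490, minus strand) ranked at 95.3, 95.1 and 91.3 in young and at 95.5, 95.1 and 96.6 in middle-aged libraries. These ranks were near the top of the list in both groups and overlapped (difference 1.87, exact permutation p = 0.3). Fold enrichment was 12.0, 12.6 and 11.5 in young and 13.1, 13.3 and 14.8 in middle-aged libraries and did not overlap (exact permutation p = 0.1). The peak was broad and of similar width throughout, 791 to 850 bp in young and 790 to 806 bp in middle-aged libraries. Another protein-coding gene, Gm10647 on the other strand, starts within 1000 bp of the end of this region. The paralog Aph1c shared 0 of 821 30-base words of the Aph1b peak.

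The sheddases had the highest mean ranks of the set, although Adam17 ranked below Aph1b in young replicate 3. Adam10 encodes the metalloprotease that makes the ligand-dependent cut of Notch (chr9:70678997-70780229, plus strand). Its peak, at chr9:70678601-70679686, ranked at 96.6, 96.3 and 98.4 in young and at 96.5, 97.0 and 97.5 in middle-aged libraries. The highest rank was in young replicate 3, the library with the shortest list, and the means differed by −0.12 percentile points (exact permutation p = 0.9). Fold enrichment was 15.0, 16.7 and 18.3 in young and 16.5, 16.7 and 18.0 in middle-aged libraries.

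The Adam10 best peak was 525, 596 and 510 bp wide in young and 1054, 592 and 923 bp wide in middle-aged libraries. These widths overlapped at middle-aged replicate 2 (difference 313 bp, exact permutation p = 0.2). In young replicate 1 and middle-aged replicate 2 a separate peak was called downstream of the TSS, in the stretch that the single wide peaks of middle-aged replicates 1 and 3 covered. The summed width of all TSS peaks was 763, 596 and 510 bp in young libraries and 1054, 912 and 923 bp in middle-aged libraries. Summed width was chosen after these peaks had been seen, so the lack of overlap is a description with no test. Adam10 was the 1 gene of 7 with no overlap in it, beside 16.1% of all genes with a larger summed width in every middle-aged library.

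Adam17 encodes a broadly acting sheddase that can also cut Notch (chr12:21323509-21373632, minus strand). The peak at chr12:21373213-21374122 ranked at 96.1, 96.8 and 90.3 in young and at 96.2, 96.3 and 96.7 in middle-aged libraries. Only young replicate 3 was lower than the rest (difference 1.98, exact permutation p = 0.6), and without it the difference was −0.07. Fold enrichment was 13.1, 15.0 and 10.4 in young and 14.5, 14.8 and 14.4 in middle-aged libraries. The best peak was 586, 517 and 409 bp wide in young and 706, 657 and 637 bp wide in middle-aged libraries. Adam17 was the 1 gene of 7 whose best peak was wider in every middle-aged library (difference 163 bp, exact permutation p = 0.1), against 14.7% of all genes. Young replicate 1 had a second TSS peak, and summed widths overlapped, at 794, 517 and 409 bp in young and 706, 657 and 637 bp in middle-aged libraries. A noncoding RNA gene, Gm49586, starts within 1000 bp of this region on the other strand.

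Adam17 also had a strong intronic peak in all 6 libraries at chr12:21335836-21336495, far inside the gene. It ranked at 87.6, 86.9 and 73.4 in young and at 87.8, 82.5 and 84.9 in middle-aged libraries, so the groups overlapped. A weaker intronic peak at chr12:21369091-21369328 was called in 2 young and 0 middle-aged libraries. In Adam10, 1 intronic peak, at chr9:70731227-70731426, was called in middle-aged replicate 1 alone.

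**Figure D2:**
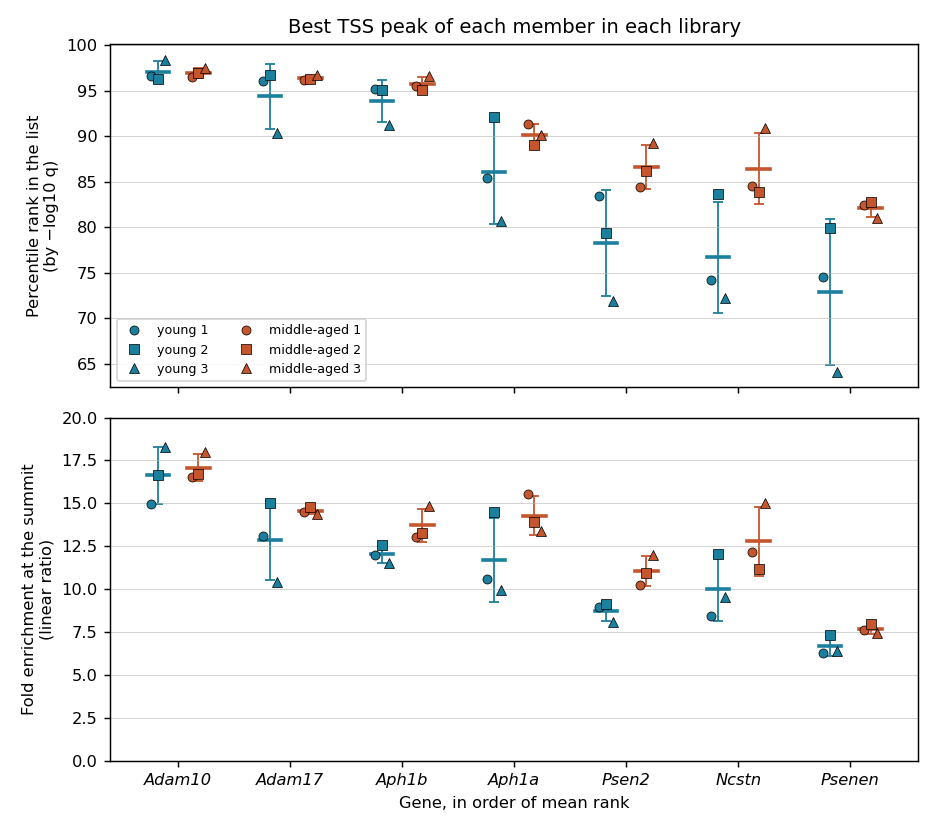
Percentile rank by −log10 q (top, axis from about 62 to 100) and fold enrichment (bottom, axis from 0) of the best TSS peak of each gene, by library. Points are libraries, horizontal bars are group means and error bars are SD (n = 3). Ncstn, Psen2 and Psenen have ranks with no overlap between the groups, and Adam10, Adam17 and Aph1b lie above 90 in every library.

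The genes were ordered by mean rank over the 6 libraries. Adam10 stood first with 97.0, followed by Adam17 (95.4), Aph1b (94.8), Aph1a (88.1), Psen2 (82.4), Ncstn (81.6) and Psenen (77.5). Adam10 was above 88.6% of the 10569 genes by this measure, and Psenen above 34.0%. Neighbors in this order were compared within libraries by an exact sign permutation, with Benjamini-Hochberg adjustment over the 6 pairs. Aph1b ranked above Aph1a, and Aph1a above Psen2, in 6 of 6 libraries (exact p = 0.031 and adjusted p = 0.0938 for each). The other 4 pairs had adjusted p-values of 0.125 to 0.75, and no pair of neighbors passed 0.05. With 6 libraries 0.031 is the smallest p of this test, so 1 pair alone could not pass after adjustment over 6 pairs. The pairs were also set by mean rank in the same libraries. The lack of a pass therefore does not show that neighbors were alike. Psen2 and Ncstn were the least separated, with Psen2 above Ncstn in 2 of 6 libraries.

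The question put to the age groups was whether chromatin at these genes was more open in middle-aged cells. Ranks were higher in every middle-aged library in 3 of the 7 genes (Ncstn, Psen2 and Psenen), and lower in every one in 0. The same pattern held for 30.6% of the 10569 genes in the upward direction and for 0.274% in the downward direction. All 3 genes encode gamma-secretase subunits and had the lowest mean ranks of the 7. The ranks of the other gamma-secretase genes, Aph1a and Aph1b, overlapped between the groups. The median rank difference was 4.08 percentile points over the 7 genes and 4.97 over all genes. Fold enrichment was higher in every middle-aged library in 3 of the 7 genes (Psen2, Psenen and Aph1b), against 38.4% of all genes, with a median difference of 1.71 against 1.78. The median gene thus had higher values in middle-aged libraries by both measures, and the counts among the 7 genes were read against these shares with no further test.

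The count of 3 by rank depended on how ranks were made. Rank is a share of list length, and length differed with age. It ran from 27628 to 43941 peaks in young and from 46364 to 48344 in middle-aged libraries. When each list was cut to the 27628 best peaks, or when ranks were taken among TSS peaks alone, 0 of the 7 genes had non-overlapping ranks, against 9.51% and 15.2% of all genes. With equally long lists the rank differences were 6.07 for Ncstn, 4.72 for Psen2 and 3.03 for Psenen (exact permutation p = 0.2, 0.3 and 0.3). Without young replicate 2 the count was 5, against 58.8%, and without young replicate 3 the rank differences of Psenen, Psen2 and Aph1a fell to 4.85, 5.23 and 1.40. The median over the 7 genes moved with that over all genes: 0.461 and 0.855 with equally long lists, 1.99 and 3.32 among TSS peaks, 1.40 and 2.21 without young replicate 3, and 7.10 and 6.82 without young replicate 2.

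**Figure D3:**
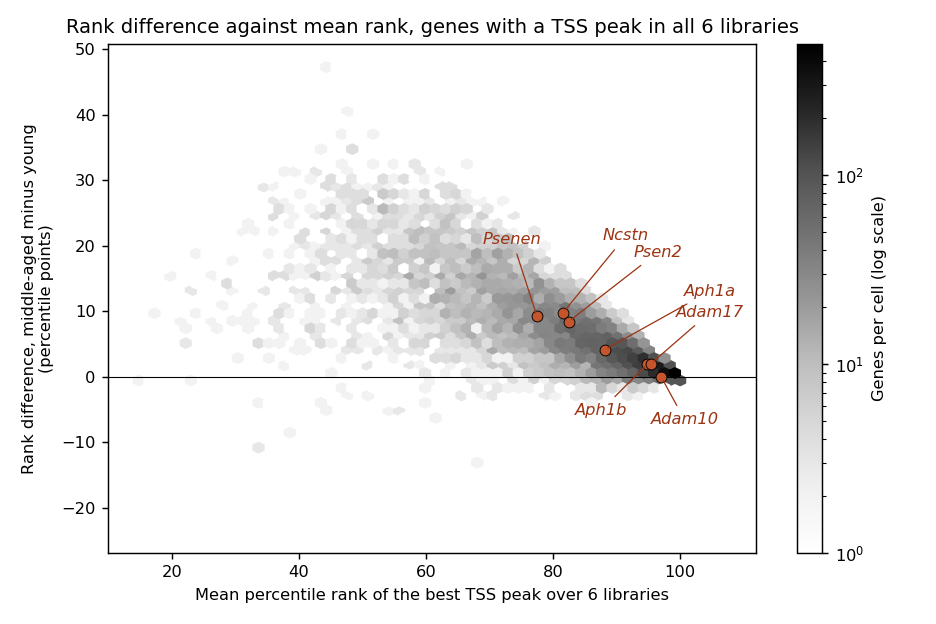
Rank difference (middle-aged minus young, percentile points) against mean rank for the 10569 genes with a TSS peak in all 6 libraries (grey cells, shade on a log scale), with the 7 genes in orange. Differences narrow toward the top of the list, where Adam10, Adam17 and Aph1b lie, and the 7 genes sit within the cloud of all genes.

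To compare genes after removing what all of them share, log2 fold enrichment was centred on each library's median and tested with limma across the 10569 genes. No gene was called at an adjusted p under 0.05 (0 of 10569, or 0%), and 845 (8%) had an unadjusted p under 0.05. Of the 7 genes, 0 were called and 0 had an unadjusted p under 0.05. The centred log2 differences, middle-aged minus young, were 0.09 ± 0.13 (SE) for Ncstn, 0.07 ± 0.10 for Psen2, −0.06 ± 0.09 for Psenen, 0.04 ± 0.11 for Aph1a and −0.08 ± 0.10 for Aph1b. They were −0.23 ± 0.12 for Adam10 and −0.07 ± 0.11 for Adam17. All of these differences but that of Adam10 were smaller than their SE. The adjusted p-values ran from 0.63 for Adam10 to 0.931 for Aph1a. Without young replicate 2 the Adam10 difference was −0.30 (unadjusted p = 0.0358, adjusted p = 0.467 by limma), and without young replicate 3 it was −0.12.

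The centring took out a shift common to most genes. Median fold enrichments were 9.53, 11.2 and 9.43 in the young and 12.0, 12.0 and 12.1 in the middle-aged libraries. Without centring the median log2 difference of all genes was 0.24, and all 7 genes were above 0, from 0.04 for Adam10 to 0.36 for Ncstn, so the signs of Psenen, Aph1b, Adam10 and Adam17 depend on the centring. Even then limma called 0 of the 7 genes (adjusted p 0.106 to 0.786), and 3 of 10569 overall.

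**Figure D4:**
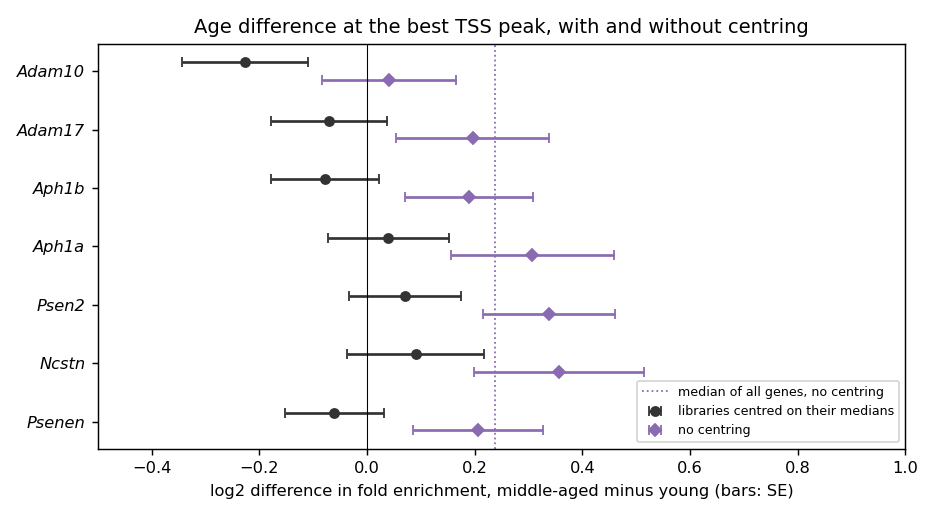
Log2 difference in fold enrichment (middle-aged minus young) of each gene from limma, with libraries centred on their medians (grey circles) and without centring (purple diamonds). Error bars are SE, and the dotted line is the median of all genes without centring. The centred values lie near 0, from −0.23 to 0.09, and the uncentred values lie on both sides of the dotted line at 0.24.

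Summit height was compared as well. It was expressed as the read pileup at the summit divided by the genome-wide background of the library. At Ncstn it was 12.0, 19.1 and 17.0 times the background in young and 22.4, 23.7 and 29.4 times in middle-aged libraries. At Adam10 it was 33.1, 42.0 and 51.6 times in young and 50.8, 56.6 and 54.1 times in middle-aged libraries, with young replicate 3 above middle-aged replicate 1. Height was greater in every middle-aged library in 5 of the 7 genes (Ncstn, Psen2, Psenen, Aph1b and Adam17), against 60.7% of all genes.

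With log2 height not centred, a setting added after the data had been seen, limma called 5 of the 7 genes higher in middle-aged cells, against 49.7% of all genes. These were Ncstn (0.67, adjusted p = 0.0157), Psen2 (0.56, 0.0297), Psenen (0.50, 0.0435), Aph1b (0.51, 0.0403) and Adam17 (0.50, 0.0446). All 7 genes had the same SE in this fit, 0.214. Its p-values thus rest on a spread pooled over genes and do not measure that of each gene between libraries. The median log2 difference was 0.50 over the 7 genes and 0.48 over all genes, so the 5 calls followed the shift of all genes. With centred height, 0 of the 7 were called and 0 of 10569 overall. The files hold no measure that separates a general gain of accessibility from a difference in signal over background between libraries.

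Genes that work beside the set were read the same way. Of 13 genes for assembly of gamma-secretase and for trafficking or control of the sheddases, 9 had a TSS peak in all 6 libraries and 5 of these had higher ranks in every middle-aged library, beside 30.6% of all genes. Their median rank difference was 5.11 percentile points, beside 4.97 over all genes. The top-ranking ones were Tspan14 (mean rank 99.4), a tetraspanin partner of ADAM10, Adam9 (98.3), a related metalloprotease, and Rer1 (93.7), a retrieval receptor that handles unassembled subunits. All 3 belonged to the 5, although at Tspan14 the difference was only 0.358 percentile points.

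All 5 related genes, which encode intramembrane proteases of the signal peptide peptidase family and Aph1c, had a peak in every library. The highest mean ranks were those of Aph1c (94.1), Sppl2a (82.7) and Sppl3 (65.9), and Sppl2a was the 1 gene of the 5 with no overlap, higher in middle-aged libraries (30.6% of all genes). The median rank difference of the 5 genes was 20.3 percentile points, beside 4.97 over all genes, and their mean ranks lay between 51.2 and 94.1. At Sppl3, with the largest difference of the 3 named, the groups still overlapped, with ranks of 67.2, 77.5 and 15.3 in young and 80.7, 82.1 and 72.6 in middle-aged libraries. The centred log2 differences in fold enrichment of the 5 genes had both signs, from −0.17 for Aph1c to 0.24 for Sppl3. Limma with centring called none of the genes of these lists.

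The substrates and ligands were read last. Of 9 Notch receptor and ligand genes, 3 had a TSS peak in every library, Dll1 had one in 4 libraries and 5 (Notch3, Notch4, Dll3, Dll4 and Jag2) had none in any. Jag1 ranked at 82.0, 85.5 and 75.7 in young and 80.1, 84.2 and 84.6 in middle-aged libraries. Notch2 ranked at 72.6, 79.0 and 73.6 in young and 81.0, 86.6 and 81.4 in middle-aged libraries, with no overlap, the 1 gene of the list of which this was true (30.6% of all genes). Notch1 ranged widely, at 41.4, 75.7 and 35.2 in young and 82.7, 79.4 and 73.1 in middle-aged libraries. The centred log2 differences were −0.23 ± 0.10 (SE) for Jag1, 0.01 ± 0.12 for Notch2 and 0.25 ± 0.17 for Notch1, and none was called by limma (adjusted p 0.617, 0.978 and 0.691). Absence from a list means only that no peak passed the caller's threshold there.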

How the data were processed

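ATAC-seq libraries of 3 young and 3 middle-aged SSPC samples were analysed, grouped by sample title. According to the study's methods, bcl2fastq made the reads, Bowtie2 mapped them to mm10, Sambamba took out duplicates and MACS called the peaks. Peaks were deposited as 1 list per library. The authors deposited a score, a fold enrichment (a linear ratio over local background), a −log10 p and a −log10 q for each peak. A control library, a shift of reads for the transposase and the treatment of reads with several matches are not given in the sources used here. The DiffBind comparison of the study needs reads and was not repeated.

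Start sites were those of protein-coding transcripts in GENCODE (54361 sites in 21853 genes, mitochondrial genes left out). The best TSS peak of a gene was the one with the highest −log10 q among peaks overlapping 1000 bp either side of a TSS. Percentile rank is its place in its own list as a share of the list's length. Summit pileups were solved from the deposited fold and −log10 p under the caller's Poisson model, and 100% came within 0.05 reads of a whole number in every list. The lowest background of a list served as its genome-wide background. Exact permutation tests were two-sided, over the 20 assignments of 6 libraries to groups. Log2 fold enrichment was tested with limma (version 3.58.1, R 4.3.3), without trend or robust options, with Benjamini-Hochberg adjustment over all 10569 genes. Peak joins and pileup solutions were tested on simulated data first. The limma fit was tested after the real fits, on simulated data built from the means and spread of the real values. Motifs were read from GRCm38.p6. For 9 of 9 RefSeq promoter entries of the 7 genes the bases read equalled the entry.

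The members, gene lists, motifs and tests were chosen with earlier results of these data known. All members were named. Of the related lists, genes called by limma and up to 3 with the highest mean rank were to be named, with genes sharing a promoter and the 3 genes most like Ncstn. Receptors, ligands and markers without a peak were named as well, after their values were seen. Alternatives were other centring, weights, filters, windows, ranking rules, a replicate block and leaving out each library. The labels do not say whether libraries with equal replicate numbers were handled together. The correlations of their deviations from group means were 0.00508, −0.0359 and −0.0687, so no shared deviation was seen.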

Additional observations from a re-analysis of the deposited data

How the results depend on the processing

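Several results changed with the processing, and the cause was not tested. Without centring, the log2 fold enrichment differences of Psenen, Aph1b, Adam10 and Adam17 turned positive (0.21, 0.19, 0.041 and 0.20), and 3 genes were called over all. With summit height in place of fold enrichment, Psenen, Aph1b and Adam17 turned positive (0.016, 0.027 and 0.012) and Aph1a negative (−0.11). With height and no centring, added after seeing the data, 5 of the 7 genes and 5253 genes over all were called. The SE was the same for all 7 genes in that fit, and Psenen, Aph1b, Adam10 and Adam17 were at 0.50, 0.51, 0.37 and 0.50. With the peak nearest to a TSS, 8 genes were called over all and 0 of the 7.

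Genes of the 7 with higher ranks in every middle-aged library numbered 0 with equally long lists and 0 with ranks among TSS peaks alone. They numbered 2 with a −log10 q of at least 5 and 2 with ranks by fold enrichment, against 28.2% and 23.3% of all genes. The alternatives for counts by fold enrichment, width, summed width and height were added after seeing the data. Leaving out 1 library at a time gave 3 to 5 such genes by rank, 3 to 6 by fold enrichment, 1 to 3 by width and 1 to 4 by summed width. The highest counts came without young replicate 2 for rank and fold (58.8% and 72.3% of all genes), without young replicate 2 or middle-aged replicate 1 for width (35.1% and 23.5%), and without middle-aged replicate 1 for summed width (25.8%). Over the same fits limma called 0 to 1 genes, and the 1 came without young replicate 3. The log2 difference ran from −0.028 to 0.18 for Ncstn, negative without middle-aged replicate 3, and from −0.028 to 0.12 for Aph1a, negative without young replicate 3 or middle-aged replicate 1. It ran from −0.304 to −0.117 for Adam10 and from −0.175 to −0.0121 for Adam17, where the extremes came without young replicates 2 and 3 and without young replicates 3 and 1. The median rank difference of the 7 genes ran from 1.40 to 7.10. With the replicate block, which the numbers did not support as a pairing, 0 genes were called (796 at an unadjusted p under 0.05), and the rank difference of Ncstn was 9.75 (exact sign permutation p = 0.25, the smallest 3 pairs can give). Quantile normalization, library weights, the filter on low ranks and windows of 500 or 2000 bp changed no limma call and no direction of the log2 difference of the 7 genes.

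Read depth was not given, 3 libraries a group allow no exact p under 0.1, and young replicate 3 had the thinnest background. The lengths of the peak lists had no overlap between the ages, which limits what the rank differences in full lists can show.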
